A study of Mus musculus with 4 samples.

Results

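The 9 genes described here form the core of the Hedgehog signalling pathway: the ligand *Shh*, the receptor *Ptch1*, the co-receptor *Gas1*, the ligand-binding antagonist *Hhip*, the signal transducer *Smo*, the GLI regulator *Sufu* and the transcription factors *Gli1*, *Gli2* and *Gli3*. They were chosen by name as pathway components, and all 9 were found among the 55602 genes of the count table and among the 19995 genes tested. RNA-seq had been performed on neural precursor cells (NPCs) differentiated in culture from mouse embryonic stem cells (ESCs), in 2 wild-type (WT) and 2 *Zfp57*-/- libraries. The question asked of these genes was how low the transcriptional readouts of the pathway lay in each genotype, because the differentiation medium had contained the Hedgehog inhibitor cyclopamine.

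Both genotypes came from JB1, a male F1 hybrid ESC line (maternal genome JF1, paternal genome C57BL/6, here B6), so that reads could be assigned to the maternal or paternal allele at strain differences. The mutant cells were a single JB1-derived line lacking *Zfp57*, which encodes a zinc finger protein that maintains DNA methylation at imprinting control regions. Each genotype was thus represented by 1 line, and the effect of the genotype cannot be told apart from other differences between the 2 lines. All 4 cultures were kept in a defined default medium with 1 μM cyclopamine from day 2 to day 10, then without the inhibitor until harvest at day 12. The RNA was therefore collected 2 days after cyclopamine had been withdrawn. No cyclopamine-free library was analysed here, so the level of each gene was placed among all genes of its own library rather than against an untreated control.

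In the absence of ligand, the receptor PTCH1 keeps the membrane protein SMO inactive, and the GLI factors are held by SUFU and partly converted, GLI3 above all, into transcriptional repressors. When a Hedgehog ligand binds PTCH1 with the help of the co-receptors GAS1, CDON and BOC, SMO enters the primary cilium and the GLI factors act as activators. *Gli1*, *Ptch1* and *Hhip* are themselves induced by the pathway and are widely used as its readouts. Cyclopamine binds SMO directly and blocks it downstream of the ligand. In the developing forebrain Hedgehog signalling promotes ventral identities, and its blockade in ESC cultures is used to favour dorsal, cortical progenitors.

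The libraries held between 7663520 and 10337082 reads assigned to genes, and *Zfp57* had 392 and 249 reads in WT against 158 and 144 in *Zfp57*-/- cells (log2 fold change -1.19, edgeR adjusted p = 0.0225). The study detected *Zfp57* RNA with primers that lay outside the deletion of the knockout. Whether the reads in mutant cells came from outside the deletion was not tested. The neural progenitor markers *Nes*, *Sox1*, *Sox2*, *Pax6* and *Vim* were present in every library, but the *Zfp57*-/- libraries also held RNA of pluripotent cells. The summed level of 7 pluripotency markers was 4.21 and 7.92 library-scaled counts (CPM) in WT and 1240 and 1085 CPM in *Zfp57*-/- cells. The 7 neural progenitor markers summed to 1484 and 1744 CPM in WT and 1105 and 1122 CPM in mutant cells. Of that sum, *Vim* alone had 782 and 964 CPM in WT and 738 and 732 CPM in mutant cells. *Sox2* had 104 and 119 CPM in WT and 144 and 168 CPM in mutant cells. By the test used below, 5 of the 7 were lower in mutant cells, and *Sox2* and *Vim* did not pass. *Sox1* had 36.8 and 44.7 CPM in WT and 7.30 and 3.27 CPM in mutant cells, and *Pax6* 28.4 and 27.7 against 3.97 and 2.86 CPM. This difference in marker RNA accompanies every comparison between the genotypes below, and its part in each result was not tested. In bulk RNA, fewer cells of a type and less RNA per cell cannot be told apart.

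The pathway readouts were not silent in either genotype. On the scale of FPKM, which divides the library-scaled count by the exonic length of the gene, *Gli1*, the GLI family member whose transcription depends most on the pathway, was above 41.3% and 37.7% of the tested genes in the WT libraries and above 49.6% and 49.97% in the *Zfp57*-/- libraries. *Hhip* was above 42.5% and 44.7% in WT and above 34.1% and 35.3% in mutant cells. *Ptch1* was the highest of the 3, above 75.1% and 66.5% in WT and 65.2% and 64.6% in mutant cells. Averaged over libraries, the median rank of the 3 readouts was 43.6% in WT and 49.8% in *Zfp57*-/- cells, close to the middle of the genes tested in both. The middle readout was *Hhip* in WT and *Gli1* in mutant cells, so the medians belong to different genes. *Hhip* and *Ptch1* ranked lower in both mutant libraries than in either WT library, and *Gli1* ranked higher. The tested set includes genes with as few as 9 reads over the 4 libraries, and a gene at its middle had 2.89 to 3.35 FPKM.

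**Figure D1:**
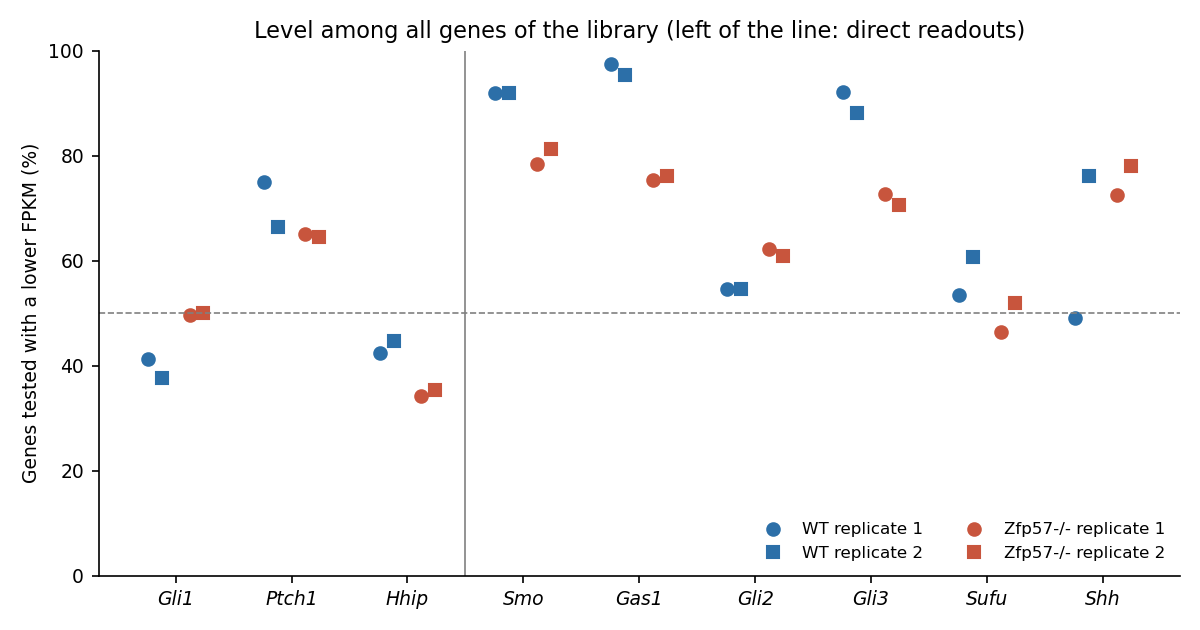
Percent of the 19995 tested genes with a lower FPKM than each gene (vertical axis) in each of the 4 libraries, with the 3 direct readouts to the left of the vertical line. The readouts range from 34.1% (*Hhip*, *Zfp57*-/- replicate 1) to 75.1% (*Ptch1*, WT replicate 1), and the dashed line marks 50%.

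Ordered by level per length in WT, the 9 genes ran from *Gas1* at 50.7 ± 7.61 FPKM (SD, n = 2) through *Smo* (26.8 ± 2.95), *Gli3* (23.3 ± 2.90), *Ptch1* (8.41 ± 1.97), *Shh* (7.09 ± 5.48), *Sufu* (4.64 ± 0.995), *Gli2* (4.03 ± 0.193) and *Hhip* (2.20 ± 0.109) to *Gli1* (1.71 ± 0.602). The ranges of the 2 WT libraries overlapped between the neighbours *Smo* and *Gli3*, and between each neighbouring pair from *Ptch1* to *Gli2*. They also overlapped between *Hhip* and *Gli1*. In *Zfp57*-/- cells the order became *Smo* (13.5 ± 1.73), *Gas1* (10.96 ± 0.421), *Shh* (10.8 ± 2.23), *Gli3* (8.94 ± 0.556), *Ptch1* (6.35 ± 0.1205), *Gli2* (5.39 ± 0.2403), *Gli1* (2.86 ± 0.0345), *Sufu* (2.80 ± 0.660) and *Hhip* (1.06 ± 0.0206). There, *Gas1* overlapped *Shh*, *Shh* overlapped *Gli3*, and *Gli1* overlapped *Sufu*. *Gas1*, first in WT by a clear gap, had come level with *Shh*, and *Hhip* had taken the last place from *Gli1*. The FPKM of *Ptch1* rests on an exonic length of 14185 bases, the sum over all its annotated exons, which lowers its value if the cells used shorter transcripts.

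Of the 9 genes, 4 were lower in *Zfp57*-/- than in WT cells (*Gas1*, *Gli3*, *Hhip* and *Smo*), none was higher, and 5 did not pass the test (edgeR quasi-likelihood test, adjusted p under 0.05 over all genes). Of all genes tested, 27.6% passed it, with 13% higher and 14.6% lower in the mutant cells. The median log2 fold change was -0.73 over the 9 genes and -0.01 over all genes tested. DESeq2 called the same numbers, 4 lower and 0 higher. At an unadjusted edgeR p under 0.05 there were 5 lower genes, with *Sufu* added, and 1 higher gene, *Gli1*. The count of 4 was 7 without either WT library, 2 without *Zfp57*-/- replicate 1 and 3 without *Zfp57*-/- replicate 2. The share of all genes called moved the same way, to 42.6% and 51.8% without WT replicate 1 or 2 and to 14.8% and 15.6% without *Zfp57*-/- replicate 1 or 2. With *Actb* as the scale it stayed at 4, while over all genes the calls shifted from 2607 higher and 2915 lower to 486 higher and 2994 lower, and the values of *Gli1* (-0.034) and *Gli2* (-0.27) fell below 0, though above the median of all genes on that scale (-0.68). The 2 WT libraries did not overlap with the 2 *Zfp57*-/- libraries in CPM for 8 of the 9 genes, 6 of them lower and 2 higher in the mutant, against 66.3% of all tested genes (32.6% lower and 33.7% higher). The p-values measure the spread between duplicate cultures of 1 line per genotype. A fit with a library left out has 1 library in that genotype and measures no spread within it.

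**Figure D2:**
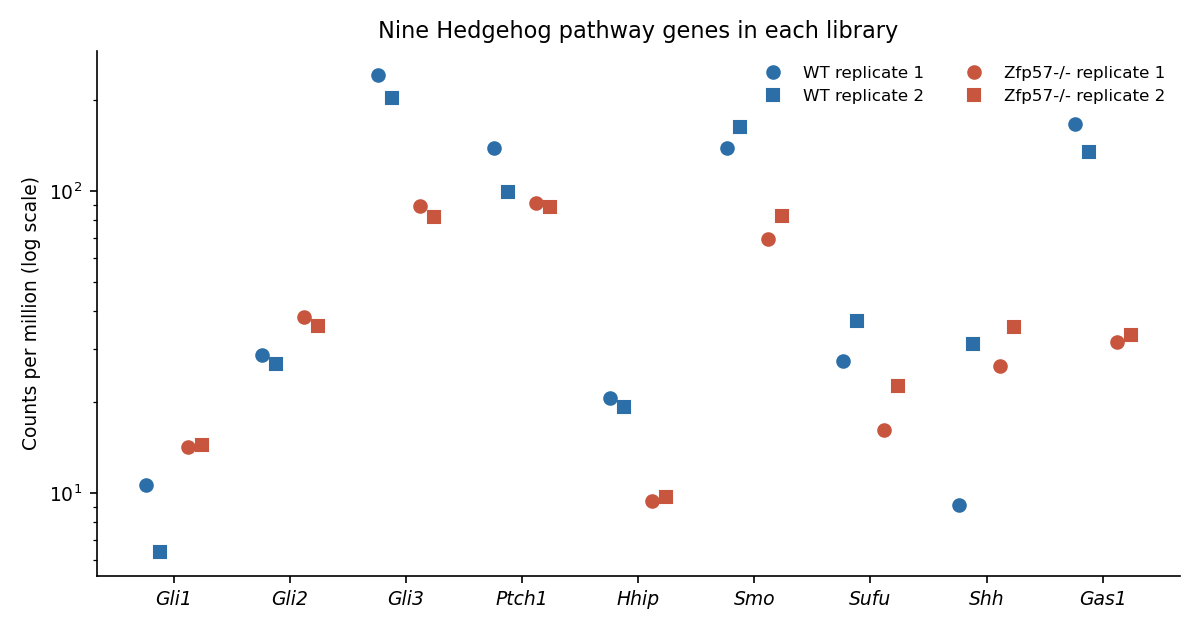
Library-scaled counts in CPM (log scale) of the 9 genes in the 2 WT and 2 *Zfp57*-/- libraries, each point 1 library. *Gas1*, *Gli3*, *Hhip* and *Smo* lie lower in both mutant libraries, *Gli1* and *Gli2* lie higher on this scale (not with *Actb* as the scale), and WT replicate 1 stands apart for *Shh*.

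*Gli1* (ENSMUSG00000025407, chr10:127329882-127341974, minus strand, GRCm38), the amplifying activator of the pathway and its most used readout, had 86 and 67 reads in WT and 132 and 141 in *Zfp57*-/- cells, or 10.6 and 6.396 CPM against 14.2 and 14.4 CPM. Both mutant libraries were above both WT libraries. The log2 fold change was 0.75 (SE 0.318, 95% interval 0.04 to 1.47, adjusted p = 0.106), so the difference did not pass the threshold over all genes. The log2 fold change was 1.13 when WT replicate 1, the higher of the WT libraries, was left out, and 0.42 without WT replicate 2.

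*Ptch1* (ENSMUSG00000021466, chr13:63508328-63573598, minus strand), the receptor that restrains SMO, had 1123 and 1042 reads in WT and 851 and 870 in *Zfp57*-/- cells, or 139 and 99.5 CPM against 91.3 and 88.9 CPM. WT replicate 1 was the highest, and WT replicate 2 lay close to the mutant libraries. The log2 fold change was -0.40 (95% interval -0.88 to 0.07, adjusted p = 0.189). It was -0.63 when WT replicate 2 was left out and -0.17 when WT replicate 1 was left out. It was -0.02 (edgeR adjusted p = 0.945) when a trend of the library differences with exonic length was taken out.

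*Hhip* (ENSMUSG00000064325, chr8:79965851-80058006, minus strand), which encodes a membrane protein that sequesters Hedgehog ligands, had 167 and 202 reads in WT and 88 and 95 in *Zfp57*-/- cells. Its level was 20.7 and 19.3 CPM in WT against 9.45 and 9.71 CPM in mutant cells, with little spread within either genotype. It was 2.08-fold lower (log2 fold change -1.06, SE 0.251, adjusted p = 0.012). The fold kept its size without *Zfp57*-/- replicate 1 (-1.03, edgeR adjusted p = 0.156) or replicate 2 (-1.07, edgeR adjusted p = 0.132), but the call was lost in both cases.

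Of the 3 readouts *Hhip* alone passed the test. With *Actb* as the scale the log2 values of all 3 were below 0, at -0.034 for *Gli1*, -1.17 for *Ptch1* and -1.76 for *Hhip*. The FPKM ratio of *Gli1* to *Ptch1* was 0.217 and 0.183 in WT and 0.440 and 0.460 in mutant cells, and that of *Hhip* to *Ptch1* was 0.232 and 0.303 in WT against 0.162 and 0.171 in mutant cells. Neither ratio overlapped between the genotypes, and neither was tested. In CPM, 66.3% of all tested genes did not overlap, and no such share is given for ratios.

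GLI proteins bind a nonamer whose consensus is GACCACCCA. The sequence directly upstream of the transcription start of the 2 readouts with an entry among the RefSeq promoters (GRCm38.p6) is shown because these genes are direct targets of the GLI factors, with the CCACCC core in capitals and both windows read 5′ to 3′ on the gene's strand. The *Ptch1* window is chr13:63565736-63565985 and the *Hhip* window is chr8:80058009-80058258. Neither overlaps an annotated exon (GENCODE vM21). The *Hhip* window lies before the whole gene, whereas the *Ptch1* window lies before 1 of several starts and inside the gene as annotated, whose 5′ end is farther upstream and was not searched.
Ptch1: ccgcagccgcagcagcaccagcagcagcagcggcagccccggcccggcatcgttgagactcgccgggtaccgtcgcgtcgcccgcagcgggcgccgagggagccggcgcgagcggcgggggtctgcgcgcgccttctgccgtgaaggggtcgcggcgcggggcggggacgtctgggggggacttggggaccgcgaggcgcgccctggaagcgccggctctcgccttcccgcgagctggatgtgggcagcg
Hhip: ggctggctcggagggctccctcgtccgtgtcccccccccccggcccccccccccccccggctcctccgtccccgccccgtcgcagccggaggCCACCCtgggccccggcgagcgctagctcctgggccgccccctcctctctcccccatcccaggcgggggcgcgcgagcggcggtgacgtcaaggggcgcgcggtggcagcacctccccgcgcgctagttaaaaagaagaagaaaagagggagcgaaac
The *Hhip* window holds 1 core, which begins 158 bases before the start site, and the *Ptch1* window holds none. Over both strands of such 250-base windows, the nonamer GACCACCCA was found in 0 of the 7 member genes with an entry and in 0.225% of 32851 promoters, and GACCNCCCA, which includes it, in 0 of 7 and 0.868%. The core CCACCC, contained in the nonamer, was found in 4 of 7 (*Gli2*, *Gli3*, *Hhip* and *Smo*) and in 28.1% of all windows. These letters mark matches only, and more distant sequence was not searched.

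*Smo* (ENSMUSG00000001761, chr6:29735503-29761365, plus strand), the target of cyclopamine, had 1123 and 1702 reads in WT and 645 and 812 in *Zfp57*-/- cells. In CPM these were 139 and 162 against 69.2 and 83.0, with both mutant libraries below both WT libraries. *Smo* was 1.98-fold lower in mutant cells (log2 fold change -0.99, SE 0.199, adjusted p = 0.00541). Without *Zfp57*-/- replicate 1 the value was -0.85 and no longer passed (edgeR adjusted p = 0.155). In spite of this difference *Smo* remained a well expressed gene, above 91.9% of the tested genes in both WT libraries and above 78.4% and 81.3% in the mutant libraries.

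*Gas1* (ENSMUSG00000052957, chr13:60174405-60177365, minus strand), a lipid-anchored co-receptor that helps SHH to bind PTCH1, showed the largest difference of the 9 genes. It had 1342 and 1407 reads in WT and 294 and 326 in *Zfp57*-/- cells, or 166 and 134 CPM against 31.6 and 33.3 CPM. The mutant libraries were close to each other and far below the WT libraries. The gene was 4.63-fold lower (log2 fold change -2.21, SE 0.216, adjusted p = 5.42e-05), and it passed the test with every library left out in turn.

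The other co-receptor genes fell too. *Boc* had 1456 and 1726 reads in WT and 355 and 312 in mutant cells (log2 fold change -2.30, edgeR adjusted p = 3.86e-05). *Cdon* had 2720 and 2621 reads in WT and 604 and 662 in mutant cells (log2 fold change -2.15, edgeR adjusted p = 8.86e-05). All 3 co-receptor genes thus had between 4- and 5-fold less RNA in the *Zfp57*-/- cells, with folds of 4.63 for *Gas1*, 4.93 for *Boc* and 4.43 for *Cdon*. Of the 8 receptors and surface modulators, 5 were lower. None was higher by edgeR, also at an unadjusted p under 0.05, or by DESeq2. The 3 that did not pass were *Ptch1*, the endocytic receptor *Lrp2* and the glypican *Gpc3*. Over all genes tested, 14.6% were lower and 13% higher.

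*Gli3* (ENSMUSG00000021318, chr13:15463235-15730026, plus strand), the main repressor form of the GLI factors, had 1963 and 2135 reads in WT and 834 and 802 in *Zfp57*-/- cells. At 243 and 204 CPM in WT against 89.5 and 82.0 CPM in mutant cells, the genotypes were well separated. It was 2.61-fold lower (log2 fold change -1.38, SE 0.196, adjusted p = 0.000729), and like *Gas1* it passed with every library left out in turn.

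*Gli2* (ENSMUSG00000048402, chr1:118834132-119053619, minus strand), the main activator downstream of SMO, had 231 and 280 reads in WT and 356 and 351 in mutant cells, or 28.6 and 26.7 CPM against 38.2 and 35.9 CPM. Both mutant libraries were higher, but the log2 fold change of 0.42 did not pass the test (95% interval -0.03 to 0.87, adjusted p = 0.148). The value was 0.44 without WT replicate 1 and 0.37 without WT replicate 2.

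The ratios of *Gli2* and *Gli1* to *Gli3* were higher in both mutant libraries, a difference that was not tested. Per unit of *Gli3* FPKM there were 0.164 and 0.183 units of *Gli2* in WT and 0.596 and 0.611 in *Zfp57*-/- cells. The ratio of *Gli1* to *Gli3* was 0.0841 and 0.0602 in WT and 0.304 and 0.338 in mutant cells. Neither ratio overlapped, but 66.3% of all tested genes did not overlap in CPM, and no such share is given for ratios. The ratios describe RNA, and neither the processing of GLI proteins nor the amount of repressor was measured.

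*Sufu* (ENSMUSG00000025231, chr19:46396896-46488804, plus strand), the cytoplasmic inhibitor of the GLI factors, had 221 and 389 reads in WT and 151 and 222 in *Zfp57*-/- cells. In CPM these were 27.4 and 37.1 against 16.2 and 22.7, lower in both mutant libraries but with replicate 1 of each genotype below replicate 2. The log2 fold change of -0.73 lay just outside the threshold (SE 0.257, 95% interval -1.31 to -0.16, adjusted p = 0.060). The value was -0.96 without WT replicate 1 and -0.49 without WT replicate 2.

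Of the 18 GLI factors and their regulators, 6 were lower and 1 was higher, against 14.6% and 13% of all genes tested. Besides *Gli3*, the lower genes were the kinase genes *Gsk3b* (log2 fold change -1.19), *Dyrk2* (-0.62) and *Prkacb* (-0.56), which encodes a catalytic subunit of protein kinase A, the ciliary receptor gene *Gpr161* (-0.96), and *Spop* (-0.91), which encodes a ubiquitin ligase adaptor. The 1 higher gene was *Evc2* (130 and 94 reads in WT, 259 and 241 in mutant cells, log2 fold change 1.07, edgeR adjusted p = 0.0245), which encodes a ciliary partner of SMO. *Kif7*, a kinesin of the cilium tip, had 222 and 318 reads in WT and 253 and 225 in mutant cells and did not pass (-0.21, edgeR adjusted p = 0.519).

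**Figure D3:**
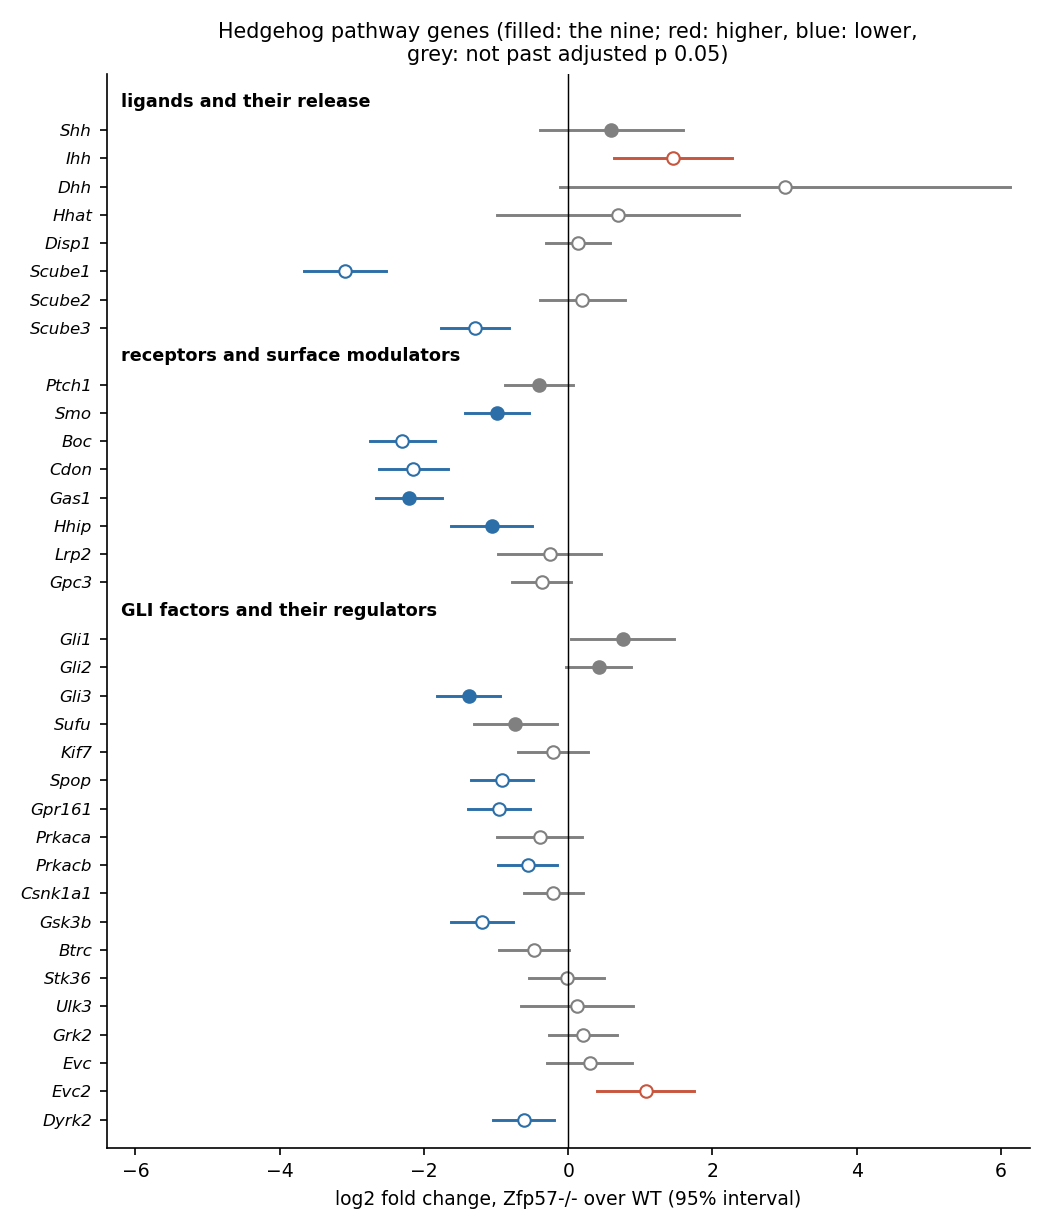
Log2 fold change of *Zfp57*-/- over WT (horizontal axis, bars: 95% intervals) for the 34 ligand, receptor and GLI regulator genes, the 9 genes drawn as filled points. Of the 34 genes, 13 were lower (blue) and 2 higher (red), with *Scube1*, *Boc*, *Gas1* and *Cdon* farthest to the left among them. Over all genes tested, 14.6% were lower and 13% higher.

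*Shh* (ENSMUSG00000002633, chr5:28456815-28467256, minus strand), the ligand after which the pathway is usually named in neural tissue, had 74 and 327 reads in WT and 246 and 346 in *Zfp57*-/- cells, or 9.16 and 31.2 CPM against 26.4 and 35.4 CPM. WT replicate 1 was low, and WT replicate 2 lay between the mutant libraries, 3.41-fold above its own duplicate. The log2 fold change of 0.60 did not pass the test (95% interval -0.39 to 1.59, edgeR adjusted p = 0.347). It was 1.75 without WT replicate 2 and -0.04 without WT replicate 1, so that the spread between the WT cultures sets its direction.

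*Ihh*, the second ligand, lies on chromosome 1 and had 84 and 250 reads in WT and 337 and 569 in mutant cells. Both mutant libraries were higher, and *Ihh* rose 2.73-fold (log2 fold change 1.45, SE 0.366, edgeR adjusted p = 0.0163). The third ligand, *Dhh*, had 0 and 1 reads in WT and 3 and 7 in mutant cells, too few for a fold change. The level of *Shh* ranged from 3.22 to 12.4 FPKM over the 4 libraries and that of *Ihh* from 3.41 to 19.1 FPKM.

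Both ligands were lowest in WT replicate 1, and so were 4 of the 8 endoderm markers, *Foxa2*, *Sox17*, *Gata4* and *Gata6*, which were picked out after their values had been seen. *Foxa2*, which is also a floor plate gene and a Hedgehog target, had 173 and 520 reads in WT and 444 and 707 in mutant cells. *Sox17* had 589, 1479, 1269 and 1784 reads in the same order, and *Gata4* had 542, 1669, 1400 and 2041. Between the WT cultures, *Foxa2* was 2.32-fold, *Gata4* 2.37-fold, *Sox17* 1.94-fold and *Ihh* 2.29-fold higher in replicate 2. The other endoderm markers did not share this order. *Ttr* (116, 26.3, 19.4 and 27.4 CPM) and *Apoa1* (3.10, 0.0955, 0.215 and 1.23 CPM) were highest in WT replicate 1, while *Sox7* was lowest in *Zfp57*-/- replicate 2 and *Afp* in WT replicate 2. The summed level of 8 endoderm markers was 341 and 504 CPM in WT and 454 and 619 CPM in *Zfp57*-/- cells, and none of the 8 was at 0 in any library. *Sox7* was the 1 endoderm marker that passed the test (116 and 157 reads in WT, 71 and 71 in mutant cells, log2 fold change -0.98, edgeR adjusted p = 0.0268). Of the notochord and floor plate markers listed below, *T* was also lowest in WT replicate 1 (14.5, 32.9, 106 and 124 CPM). *Foxj1*, *Chrd*, *Nog* and *Ntn1* of that list were lowest in other libraries. Which cells made *Shh* and *Ihh* was not tested.

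**Figure D4:**
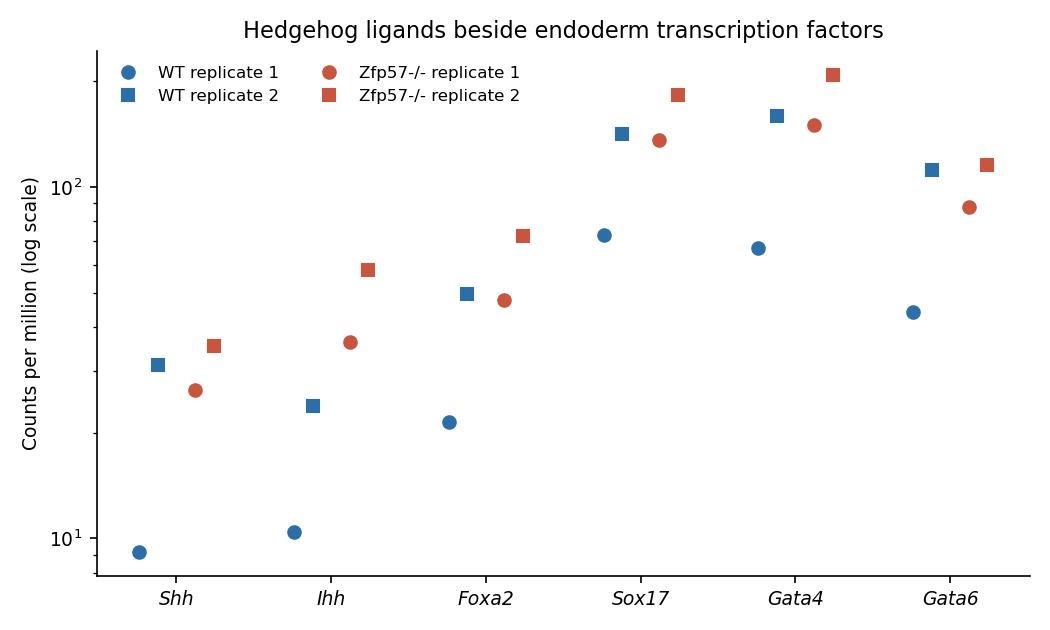
Library-scaled counts in CPM (log scale) of *Shh* and *Ihh* beside *Foxa2*, *Sox17*, *Gata4* and *Gata6*, 4 of the 8 endoderm markers picked after their values had been seen, in each library. For all 6 genes WT replicate 1 is the lowest library, and the replicate marked by squares is above its duplicate in each genotype.

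Of the 8 genes for ligands and their release, *Ihh* was the 1 gene that rose, and *Scube1* and *Scube3*, which encode secreted proteins, fell. *Scube1* had 556 and 536 reads in WT and 72 and 61 in mutant cells (log2 fold change -3.10, edgeR adjusted p = 2.51e-05). *Scube3* fell by 1.29 on the log2 scale (758 and 742 reads against 318 and 325, edgeR adjusted p = 0.00166). *Disp1*, the transporter that releases lipid-modified ligand, had 250 and 348 reads in WT and 335 and 336 in mutant cells and did not pass (0.13, edgeR adjusted p = 0.665). Over ligands, receptors and GLI regulators together, 15 of 34 genes passed the test, 13 of them lower, and without the 9 genes it was 11 of 25, with 9 lower. The share of 44.1% stands beside 27.6% of all genes, a set that includes genes with very few reads. With at least 1 CPM required in 2 libraries, the pathway count was 15 as well, and 33.7% of all genes passed. The count of 15 was 21 without WT replicate 1, 22 without WT replicate 2, 7 without *Zfp57*-/- replicate 1 and 8 without *Zfp57*-/- replicate 2, where the shares of all genes were 42.6%, 51.8%, 14.8% and 15.6%.

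Among 18 genes of the primary cilium, the organelle through which SMO and the GLI factors act, 9 were lower. None was higher by edgeR, also at an unadjusted p under 0.05, or by DESeq2. The largest differences were those of *Tmem67* (230 and 182 reads in WT, 96 and 80 in mutant cells, log2 fold change -1.31), *Dync2h1* (-1.30), *Kif3a* (-1.08) and *Ift80* (-0.91). These encode a transition zone protein, motor subunits and a component of intraflagellar transport. The median log2 fold change of the 18 was -0.68. Lower calls made up 14.6% of all genes tested. The count of 9 rests on the mutant duplicates, because it was 2 when either *Zfp57*-/- library was left out, with 14.8% and 15.6% of all genes called in these fits.

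Downstream genes were read from lists of targets known in other tissues. Of 10 mesenchymal and growth targets, 9 were tested. Of these, 4 were lower, namely *Ccnd2* (3250 and 6205 reads in WT, 729 and 890 in mutant cells, log2 fold change -2.56), *Bcl2* (-1.89), *Hsd11b2* (-1.66) and *Ccnd1* (-1.30), and *Sfrp1* was higher (0.74). *Ccnd1* and *Ccnd2* encode cyclins that promote entry into the cell cycle and respond to many other signals. *Foxl1* had no read in any library. The shares over all genes tested were 14.6% lower and 13% higher.

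Of 10 ventral and intermediate neural genes, listed for a link to Hedgehog signals in the embryo, 3 had too few reads to be tested. How far each gene depends on the pathway was not tested. *Nkx2-1*, the ventral forebrain factor, had 0 and 2 reads in WT and none in mutant cells, *Nkx2-2* had 2, 1, 0 and 0, and *Gsx2* had 2, 0, 0 and 2. *Olig2*, a factor of ventral progenitors, had 18 and 19 reads in WT and 59 and 67 in mutant cells and was higher (log2 fold change 1.71, edgeR adjusted p = 0.0174). *Dbx1*, an intermediate spinal and hindbrain progenitor gene, had 112 and 87 reads in WT and 1 and 7 in mutant cells and was lower (-4.68, edgeR adjusted p = 0.000643). *Lhx6*, *Nkx6-1*, *Nkx6-2*, *Foxa2* and *Dlx2* did not pass. The 1 higher and 1 lower gene stand beside 13% and 14.6% of all genes tested. *Foxa2* was the most highly expressed gene of the list, above 73.2% and 87.8% of the tested genes in WT and 86.8% and 91.6% in mutant cells.

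Of 8 dorsal telencephalic genes, which cyclopamine is meant to favour, 4 were lower in the mutant cells, against 14.6% of all genes tested. *Lhx2* had 297 and 206 reads in WT and 0 and 4 in mutant cells, and *Wnt8b* had 82 and 71 against 2 and 2. *Neurog2*, a proneural factor, fell by 5.15 on the log2 scale (113 and 174 reads against 4 and 4), and *Pax6* fell by 3.03 (229 and 290 against 37 and 28). *Eomes* rose (13 and 7 reads in WT, 329 and 433 in mutant cells, log2 fold change 5.17). *Eomes* marks intermediate progenitors of the cortex and is also a gene of early mesendoderm. *Emx1*, *Emx2* and *Tbr1* did not pass and had few reads in every library. In WT, *Emx1* had 3 and 7 reads, *Emx2* 16 and 24, and *Tbr1* 15 and 8.

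Markers of the other cell types moved as follows beside these genes. Over all genes tested, 13% were higher and 14.6% lower. All 7 pluripotency markers rose by edgeR, from 1 and 6 reads in WT to 2747 and 2286 in mutant cells for *Pou5f1*, from 9 and 4 to 2123 and 1674 for *Dppa5a*, from none to 903 and 938 for *Nanog*, and from 0 and 2 to 2301 and 2301 for *Tdgf1*. Of 7 neural progenitor markers, 5 fell, among them *Hes5* (317 and 459 reads against 12 and 10), *Fabp7* (1110 and 1863 against 184 and 192), *Sox1* (297 and 468 against 68 and 32) and *Nes* (2876 and 3839 against 1773 and 1906). Of 7 mesenchyme markers, *Twist1* (-1.14) and *Prrx1* (-0.97) fell, while *Pdgfra* and *Col1a1* did not pass. Their sum was 1147 and 668 CPM in WT and 775 and 778 CPM in mutant cells. Of 8 notochord and floor plate markers, a list that includes *Shh* itself, *T* (117 and 345 reads against 985 and 1215), *Ntn1* (223 and 284 against 959 and 1097) and *Noto* (none against 5 and 9) were higher. The other markers of that list did not pass, with log2 fold changes of 0.75 for *Foxa2*, 0.60 for *Shh*, 0.60 for *Chrd*, -0.63 for *Nog* and -1.01 for *Foxj1*. The list summed to 114 and 196 CPM in WT and 316 and 386 CPM in *Zfp57*-/- cells. Of these sums, *T* had 14.5 and 32.9 against 106 and 124 CPM, and *Ntn1* 27.6 and 27.1 against 103 and 112 CPM.

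The genes whose profile over the 4 libraries was most like that of *Gli1* were *Pms1*, *Malt1* and *Dgkk*, at distances of 0.0920, 0.0945 and 0.102 in centred log2 CPM, among 10105 genes with a mean of at least 100 reads. Those most like *Ptch1* were *Nbas*, *Tmem161b* and *Mtx3* (0.00786, 0.0355 and 0.0357). With only 4 libraries such profiles are common, as 29 genes lay within 0.2 of *Gli1* and 215 within 0.2 of *Ptch1*.

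The hybrid genome allowed maternal (JF1) and paternal (B6) reads of 8 of the 9 genes to be compared. *Shh* had 1 allelic read in all 4 libraries together and could not be tested. In WT cells none of the 8 genes differed between the alleles at an edgeR adjusted p under 0.05, against 23.6% of the 10977 autosomal genes tested. DESeq2 also called 0 of them, as did an unadjusted edgeR p under 0.05. In *Zfp57*-/- cells *Gli1* and *Gli2* differed, against 21.8% of all genes. The difference between the genotypes passed the test for *Gli2* alone among the 8, against 14.5% of all genes.

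*Gli2* was balanced in WT, with 92 JF1 and 109 B6 reads in replicate 1 and 110 and 106 in replicate 2, a JF1 share of 0.458 and 0.509. In the *Zfp57*-/- libraries it had 197 JF1 and 85 B6 reads and 234 and 54 reads, a share of 0.699 and 0.812. The pooled share was 0.484 in WT (95% Wilson interval 0.437 to 0.532) and 0.756 in mutant cells (0.719 to 0.790), intervals that cover counting error only. The log2 ratio of JF1 to B6 was 1.63 in mutant cells and 1.72 higher than in WT (SE 0.249, edgeR adjusted p = 1.73e-08). The mean level of JF1 reads was 10.9 CPM in WT and 22.5 CPM in mutant cells, and that of B6 reads was 11.8 and 7.32 CPM. The median JF1 share of the 15 nearest genes on chromosome 1 was 0.478 in WT and 0.644 in mutant cells. The share of *Gli2* thus moved in the same direction as that of its neighbours. Centred on these genes, its share was 0.505 in WT and 0.612 in mutant cells, a smaller gap that was not tested. Of the 4 pathway genes on chromosome 1 that could be tested, *Gli2* and *Gpr161* differed between the genotypes. *Gpr161* had shares of 0.475 and 0.530 in WT and 0.658 and 0.601 in mutant cells. Within the mutant all 4 differed between the alleles (edgeR adjusted p under 0.05), and within WT 1 did. Over all autosomal genes tested, 14.5% differed between the genotypes, 21.8% between the alleles in the mutant and 23.6% in WT. The ligand gene *Ihh*, 1 of these 4, had shares of 0.545 and 0.511 in WT and 0.667 and 0.634 in mutant cells. Its difference between the genotypes did not pass (edgeR adjusted p = 0.226). The median of the 15 genes nearest to *Ihh* was 0.496 in WT and 0.677 in mutant cells.

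*Gli1* had JF1 shares of 0.583 and 0.545 in WT (81 allelic reads in all) and of 0.453 and 0.263 in mutant cells (155 reads). The mutant libraries lay below the WT libraries but far from each other. Within the mutant the log2 ratio was -0.86 (edgeR adjusted p = 0.0392), and the difference from WT of -1.24 did not pass (edgeR adjusted p = 0.0931). Without *Zfp57*-/- replicate 2 the ratio within the mutant was -0.27, and without replicate 1 the difference from WT was -1.87. The median of the 15 nearest genes was 0.490 in WT and 0.471 in mutant cells.

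**Figure D5:**
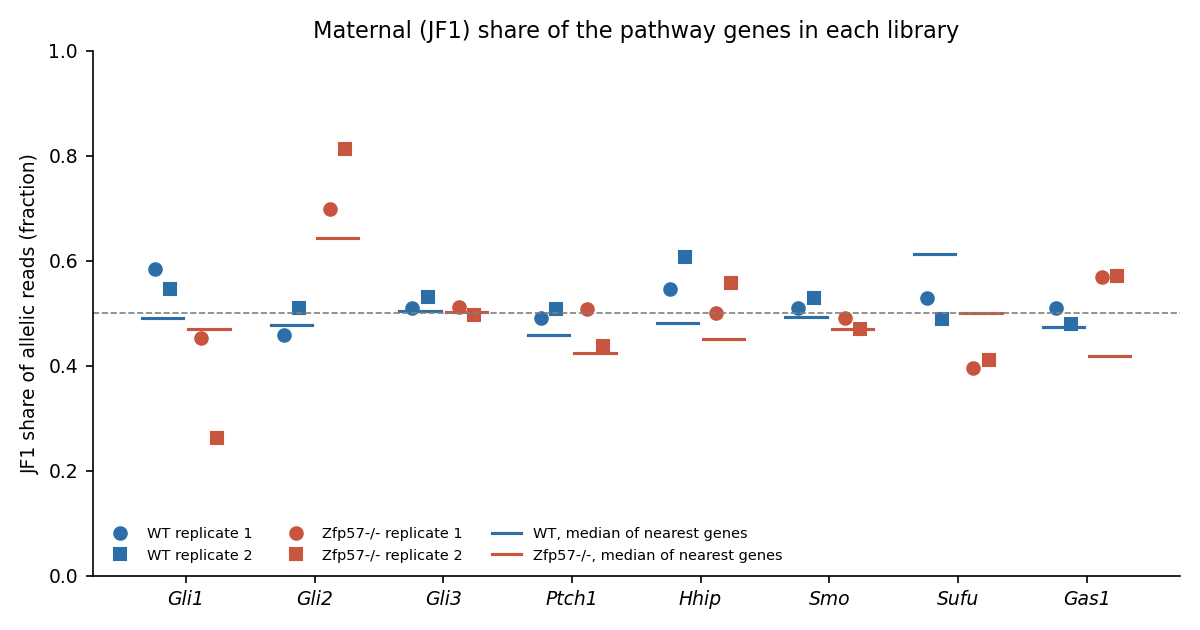
JF1 share of allelic reads (fraction of JF1 plus B6 reads) of the 8 genes in each library, with the median of the 15 nearest genes as short lines in the colour of the genotype. *Gli2* reaches 0.699 and 0.812 in the *Zfp57*-/- libraries against 0.458 and 0.509 in WT, and the dashed line marks equal shares.

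The 4 genes that fell in total RNA, together with *Ptch1* and *Sufu*, did not pass the test of a difference in allelic balance. *Gli3* had JF1 shares of 0.510 and 0.531 in WT and 0.511 and 0.496 in mutant cells over 2020 and 873 reads, with JF1 and B6 reads at 57.6 and 53.4 CPM in WT and 23.1 and 22.7 CPM in mutant cells. Both alleles of *Gli3* thus had lower values in the mutant. *Smo* had shares of 0.511 and 0.529 against 0.490 and 0.469, and *Ptch1* 0.491 and 0.508 against 0.509 and 0.438. *Sufu* had 0.530 and 0.489 against 0.397 and 0.411, a difference in log2 ratio of -0.59 (edgeR adjusted p = 0.340). *Gas1* had 0.509 and 0.480 against 0.569 and 0.570, a difference in log2 ratio of 0.43 (95% interval -0.02 to 0.88, edgeR adjusted p = 0.253). *Hhip*, with 85 allelic reads in mutant cells, had 0.545 and 0.607 against 0.5 and 0.558, and the 95% interval of its difference in log2 ratio ran from -1.21 to 0.62. Of the 34 pathway genes 28 could be tested, and 3 differed between the genotypes, against 14.5% of all autosomal genes tested. Beside *Gli2* and *Gpr161* this was the co-receptor gene *Cdon*, with shares of 0.643 and 0.635 in WT and 0.493 and 0.508 in mutant cells.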

How the data were processed

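RNA from 2 WT and 2 *Zfp57*-/- cultures, biological duplicates per the study's methods, was sequenced after ribosomal RNA depletion with a stranded kit. The authors trimmed reads with Trimmomatic 0.36, kept uniquely mapped reads (STAR 2.5.4a) and deposited raw counts per gene made with featureCounts 1.6.0 on GENCODE vM20, counted by strand per the file headers, in a bulk table and a table of JF1 and B6 reads. The allelic tables held 2837013 to 3826604 reads per library. Reads without a strain difference carry no allele, so allelic depth is lower than bulk depth.

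Genes with more than 8 reads over the 4 libraries were tested with the robust quasi-likelihood test of edgeR 4.0.16 on TMM-scaled counts (genotype as the only term, Benjamini-Hochberg adjustment over all genes, threshold 0.05). Alleles were tested in autosomal genes with at least 10 normalised allelic reads in both WT libraries, with library terms and an allele term per genotype. CPM uses TMM-scaled library sizes, and FPKM divides it by the deposited exonic length. No member shares a same-strand exon with another gene (GENCODE vM21). The scripts were tested on simulated counts.

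Members and lists were chosen with earlier results of these data known, and the promoter search was added after values had been seen. Named were the 9 genes, *Ihh*, *Dhh*, *Boc*, *Cdon*, *Disp1*, *Kif7*, *Gpr161*, the defining markers, up to 4 genes per list with the largest log2 fold change among those past the threshold with at least 20 reads in a library, and the 3 profiles nearest to *Gli1* and to *Ptch1* (genes with a mean of at least 100 reads). A further gene of this rule is not reported here and was left out of the lists. Other genes are named where a list's count calls for them, after their values were seen. Alternatives were DESeq2 1.42.0, other scalings, filters, a gene-length offset, a replicate block and leaving out each library.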

Additional observations from a re-analysis of the deposited data

Results flagged for a closer look

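The allelic balance of *Gli2* differed between the genotypes by a test of the difference itself. The log2 ratio of JF1 to B6 reads was 1.72 higher in *Zfp57*-/- than in WT cells (SE 0.249, edgeR adjusted p = 1.73e-08), the JF1 share was higher in 2 of 2 mutant libraries than in either WT library, and the value ranged from 1.30 to 2.20 when each library was left out in turn. Centred on the median of the 15 nearest genes, the JF1 share in mutant cells was 0.612 in place of 0.756, against 0.505 in WT.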

How the results depend on the processing

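*Gas1* and *Gli3* stayed lower and past the threshold under all 12 alternatives, and *Gli2* differed between the genotypes in allelic balance under all 7. The count of 4 of the 9 genes was 2 to 7 with a library left out, a fit that leaves 1 library in a genotype and assumes that it varies like the others. It was 7 with the replicate number as a block, which added *Gli1*, *Sufu* and *Shh* (the numbers share no stated origin, and deviations of the libraries with number 1 correlated at r = 0.189 over 13224 genes). With a library left out the count of pathway genes (15) ranged from 7 to 22, that of cilium genes (9) from 2 to 12, that of genes with different alleles in mutant cells (2) from 1 to 2, and that of the genotype-by-allele difference (1) from 1 to 2. *Sufu* also passed with upper-quartile scaling (edgeR adjusted p = 0.0443) and with no filter on low counts (edgeR adjusted p = 0.0198). DESeq2 called 1 gene with different alleles in mutant cells. The cause was not tested.

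With *Actb* as the scale the median of all genes shifted from -0.01 to -0.68 and the share of higher calls from 47.2% (2607 higher, 2915 lower) to 13.97% (486 and 2994). *Gli1* (-0.034) and *Gli2* (-0.27) then changed sign, yet lay 0.65 and 0.41 above that median. *Shh* ranged from -0.041 (without WT replicate 1) to 1.75 with a library left out, and the genotype-by-allele value of *Ptch1* from -0.35 to 0.057 (without *Zfp57*-/- replicate 2), against -0.16 with all libraries. Ranked by CPM without length, the median of the 3 readouts lay above 59.3% of the genes in WT and 55.4% in mutant cells, and ranked among all genes with at least 1 read above 60.001% and 64.6%.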
